A study of Mus musculus with 2 samples.

Results

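The fibroblast growth factor (FGF) genes examined were 5 ligand genes, *Fgf2*, *Fgf9*, *Fgf12*, *Fgf15* and *Fgf18*, and the 4 receptor genes *Fgfr1*, *Fgfr2*, *Fgfr3* and *Fgfr4*. These 9 of 21938 protein-coding genes were a list fixed by name, with no threshold on accessibility, and were chosen with earlier results of these data known. Open chromatin had been profiled by ATAC-seq, in which a transposase inserts adapters into accessible DNA, in whole hearts of wildtype FVB mouse embryos at E11.5 (49 to 51 somites). Both replicates, each a pair of hearts, belong to the same group, so there was no other condition to compare, and the values below are given per replicate. For every gene, peaks found in both replicates (shared regions, overlapping by at least 1 bp) were collected within 1 kb of every annotated transcript start and across the gene body with 50 kb on each side.

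Secreted FGFs bind receptor tyrosine kinases on the cell surface with heparan sulphate as a cofactor, and the bound receptors signal through the adaptor FRS2 to the RAS and MAP kinase cascade. The pathway induces its own inhibitors of the Sprouty and DUSP families and transcription factors of the ETV group. In the embryonic heart, FGFs from the endocardium and epicardium are known to promote proliferation of the myocardium through FGFR1 and FGFR2, and FGF signalling in progenitor cells is required for growth of the outflow tract. FGF12 is grouped with the ligands by sequence, but it stays inside the cell, where it modulates voltage-gated sodium channels.

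The lists held 118027 peaks in replicate 1 and 114783 in replicate 2, which gave 98924 shared regions. Fold enrichment, the authors' ratio of reads piled up at a peak summit to the background over the genome (each plus 1 read), could be turned back into whole reads for 100% of peaks in either list (within 0.05 reads), with a background of 2.68 reads in replicate 1 and 2.98 in replicate 2. Read totals are not part of these lists, and the depth was not estimated from the background. For 95% of all shared regions, fold enrichment differed between replicates by less than 1.84-fold after the median difference was removed, and this served as the spread between replicates. That limit pools all regions (medians 6.52-fold and 5.78-fold in replicates 1 and 2). For stronger regions, and for differences between sites, it is a rough guide only. The tissue label was checked with markers. A shared region was present at a start of 10 of 10 heart muscle genes, 6 of 6 endothelial and endocardial genes, 5 of 5 epicardial genes and 4 of 5 blood genes, compared with 3 of 8 genes of other tissues and 67.6% of all protein-coding genes, a share that leaves counts over such short lists a weak check. Median start values of the genes with a region were 16.3-fold for heart muscle, 12.6-fold for endothelium and endocardium, 9.58-fold for epicardium, 20.9-fold for blood and 5.21-fold for the 3 genes of other tissues. Single genes overlapped between the lists. Among genes of other tissues, *Myod1* had 4.89-fold and 5.53-fold in replicates 1 and 2, *Cdx2* had 3.80-fold and 4.78-fold and *Pax6* had 22.0-fold and 18.4-fold, while the lowest genes of their lists, *Pecam1* of endothelium and *Tbx5* of heart muscle, had 4.89-fold and 3.77-fold, and 5.43-fold and 4.78-fold. In whole hearts, a site that is open in few cells and a site that is weakly open in many cells cannot be told apart.

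All 9 FGF genes had a shared region at one of their own starts, 5 of 5 ligand genes and 4 of 4 receptor genes. Among all protein-coding genes, 67.6% had one. When peaks were limited to a q-value of at most 1e-10, 5 ligand genes and 3 receptor genes still had one, with 62.6% of all genes, and the gene lost was *Fgfr4*. At least 1 shared region in the gene body and flanks was present for all 9 genes, compared with 87.9% of all genes. Although each gene was open at a start, fold enrichment there was below the 24.5-fold median of the genes with a start region in 9 of 9 cases, and 4 of the 9 genes (*Fgf2*, *Fgf9*, *Fgfr3* and *Fgfr4*) were below the lower quartile of 14.2-fold. This was not particular to FGF genes. All 28 marker genes with a start region, including the 10 of heart muscle, were also below that median (highest mean 24.2-fold).

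The starts ranked in the order *Fgfr1*, *Fgf12*, *Fgf18*, *Fgfr2*, *Fgf15*, *Fgfr3*, *Fgf9*, *Fgf2* and *Fgfr4* by mean fold enrichment. That order leaves out the start of a long *Fgfr2* transcript at *Ctbp2*, a choice made after the data had been seen. With that start (19.0-fold and 22.1-fold), *Fgfr2* would stand between *Fgfr1* and *Fgf12*. *Fgfr1* had 22.5-fold in replicate 1 and 19.4-fold in replicate 2, higher than 40.4% of genes with a start region, and *Fgf12* had 20.1-fold and 19.4-fold. *Fgf18* had 19.3-fold and 18.4-fold. *Fgfr2* had 18.5-fold and 14.6-fold and *Fgf15* had 15.5-fold and 14.6-fold. Ligand and receptor genes were thus interspersed, and replicate values of *Fgfr2* overlapped those of both of its neighbours. *Fgfr3* had 12.0-fold and 13.8-fold, *Fgf9* had 12.5-fold and 9.80-fold, and *Fgf2* had 9.78-fold and 8.80-fold. *Fgfr4* stood at the bottom with 4.62-fold and 4.78-fold, a level exceeded by nearly all genes with a start region (2.71% were lower). These values rest on 16 reads at the *Fgfr4* summit in replicate 1 (95% exact Poisson interval 9.15 to 26.0) and 18 in replicate 2 (10.7 to 28.4), as opposed to 82 reads (65.2 to 101.8) and 76 reads (59.9 to 95.1) at *Fgfr1*. The intervals cover counting error only. Of the steps between neighbours in this order, the step from *Fgf2* to *Fgfr4* was the only one larger than the spread between replicates in the mean, and in replicate 2 it was no larger than that limit.

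**Figure D1:**
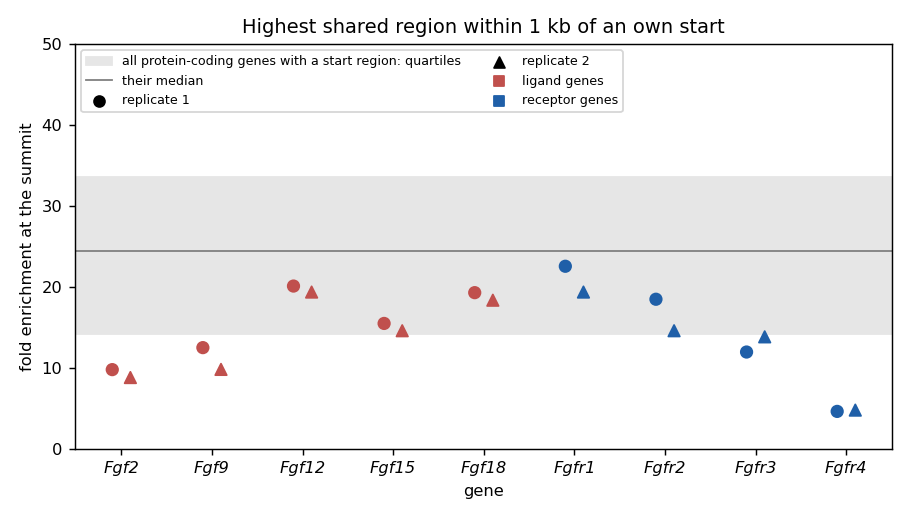
Fold enrichment (y axis, linear, ratio to background) of the shared region with the highest mean value within 1 kb of an own start, for each of the 9 FGF genes (x axis) in replicate 1 (circles) and replicate 2 (triangles), with ligand genes in red and receptor genes in blue. The grey band and line are the quartiles (14.2 and 33.5) and the median (24.5) of all protein-coding genes with a start region, and all points lie below the line, with those of *Fgfr4* at 4.62 and 4.78. The start of the long *Fgfr2* transcript at *Ctbp2* is left out.

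Among the ligand genes, *Fgf9* had the most compact arrangement. FGF9 is a secreted factor of the endocardium and epicardium. In its window of 142.2 kb around the gene body (chr14:58070547-58112720, + strand, GRCm38) only 3 shared regions were found, and all of them overlapped the surroundings of the 4 annotated starts. Their fold enrichment was 12.5-fold and 9.80-fold at chr14:58070455-58072413, 5.98-fold and 10.3-fold at chr14:58074844-58075775, and 10.6-fold and 10.3-fold at chr14:58075955-58076656. For the middle one, the summits of the replicates were 1282 bp apart, because a wide peak of replicate 2 spanned several peaks of replicate 1, so that its values describe different points. A further 4 peaks in the window were found in replicate 1 alone, none above 4.07-fold. Outside the promoter-proximal cluster, the gene body and both flanks thus held no region shared by the replicates, and the density of 2.11 regions per 100 kb was above that of 23.5% of protein-coding genes. Peaks of replicate 1 alone gave 4.92 per 100 kb (7 peaks) and those of replicate 2 gave 1.41 (2 peaks).

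*Fgf12* was the ligand gene with the longest body, 593.0 kb on the - strand of chr16:28160098-28753068, and its 4 open starts of 6 lay in 3 separate regions. The start at the far 5′ end, with its summit 307.1 kb upstream of the principal start, had 20.1-fold and 19.4-fold, the region of the principal start had 15.2-fold and 14.1-fold, and a middle start between them had 12.0-fold and 10.8-fold. The order of the 3 starts was the same in both replicates. A total of 7 shared regions lay in *Fgf12* introns. The strongest, 71.9 kb upstream of the principal start (chr16:28517796-28518462), had 12.2-fold and 11.8-fold, close to the middle start. A second, 260.6 kb upstream (chr16:28706488-28707129), had 10.3-fold and 11.8-fold, and another, 44.4 kb upstream, had 8.42-fold and 4.53-fold. Despite these regions, *Fgf12* had the lowest density of shared regions of the 9 genes, 1.59 per 100 kb, since 11 regions were spread over a window of 693.0 kb. The peaks of replicate 1 alone gave 2.45 per 100 kb and those of replicate 2 gave 1.88.

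Summit sequences of 2 *Fgf12* regions are shown as a start and an intron that hold letters of motifs for factors of heart muscle. Such letters (GATA, TEAD, MEF2 or NKX2) were also in 4 other *Fgf12* windows, so the printed windows do not stand apart by them. The window of the strongest intronic region, at 71.9 kb, held none of the letters searched, and the other start windows held only a GC box. Each window has 201 bases around the replicate 1 summit, read from the + strand of GRCm38. The region at the far 5′ start is represented by chr16:28753286-28753486 and the intronic one at 260.6 kb by chr16:28706820-28707020. Capitals mark GC boxes (GGGCGG, or CCGCCC on the other strand) and the MEF2 letters TAAAAATA in the first sequence, and the GATA letters AGATAA and TEAD letters GGAATG in the second.
Fgf12 5′ start: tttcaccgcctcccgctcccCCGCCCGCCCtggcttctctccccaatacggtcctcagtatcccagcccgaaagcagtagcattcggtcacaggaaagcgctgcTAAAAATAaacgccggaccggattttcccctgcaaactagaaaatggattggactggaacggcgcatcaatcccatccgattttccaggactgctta
Fgf12 intron: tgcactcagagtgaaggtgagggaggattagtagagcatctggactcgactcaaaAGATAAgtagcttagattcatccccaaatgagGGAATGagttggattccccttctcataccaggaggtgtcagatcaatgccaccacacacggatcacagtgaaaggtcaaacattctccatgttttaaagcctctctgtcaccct
A match of letters is a description and does not show that a factor binds.

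*Fgf2*, which encodes a heparin-binding growth factor of vessels and many other tissues, is located on the + strand at chr3:37348346-37410108. Its 6 open starts of 7 fell into 3 regions. The region of the 5′ starts had 9.78-fold and 8.80-fold, while those at internal starts 18.4 kb and 32.1 kb downstream had 5.16-fold and 5.28-fold, and 4.35-fold and 4.02-fold. An intronic region 50.9 kb downstream had 9.51-fold and 4.53-fold, a difference beyond the spread between replicates. The most enriched regions in the window of *Fgf2* belonged to neighbouring genes. The start shared by *Nudt6* and *Spata5* had 53.0-fold and 48.5-fold, the strongest value of all regions of the 9 genes, and that of *Bbs12* and *Cetn4* had 34.5-fold and 33.4-fold. An adjoining region at the latter start had 7.06-fold in replicate 1 and 33.4-fold in replicate 2, where 1 wide peak of replicate 2 covered both regions. The region counts of *Fgf2* (12 in all, 7.42 per 100 kb) thus include 3 regions at starts of other genes.

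*Fgf15* encodes the mouse counterpart of human FGF19, a hormone-like FGF known for control of bile acid synthesis and also needed for the outflow tract. Its body of only 4.42 kb (chr7:144896531-144900953, + strand) had a single start region with 15.5-fold and 14.6-fold, and its window had the highest density of the 9 genes, 12.4 regions per 100 kb, above 89.3% of protein-coding genes. Most of these 13 regions were not in *Fgf15* itself. The start of *LTO1*, 18.4 kb downstream, had 22.3-fold and 25.4-fold. Further regions belonged to the surroundings of the cell cycle gene *Ccnd1*. Its start regions had 8.42-fold and 6.28-fold, and 12.8-fold and 12.3-fold. Beyond its 5′ end, a region at 45.1 kb had 18.2-fold and 14.6-fold and another at 47.0 kb had 13.0-fold and 14.6-fold. The replicate 2 value of the last region belongs to a wide peak whose summit was 1822 bp away. The start of *Fgf4*, 50.1 kb upstream, reached 4.07-fold and 4.53-fold. Between *Fgf15* and *LTO1*, a group of 3 regions at 10.7 kb to 12.3 kb downstream started with 9.78-fold and 10.8-fold and was followed by 5.98-fold and 6.28-fold, and 5.70-fold and 5.03-fold. No protein-coding gene was annotated there.

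*Fgf18*, which encodes a secreted factor of the skeleton and lung, is located on the - strand at chr11:33117430-33147400. A region of 3166 bp covered both of its starts with 19.3-fold and 18.4-fold. Of 4 intronic regions, that at 4.29 kb had 11.4-fold and 9.05-fold and that at 24.4 kb had 8.96-fold and 10.3-fold, whereas the others were at or below 5.16-fold. The window held 6.92 shared regions per 100 kb, compared with 10.8 peaks in replicate 1 and 8.46 in replicate 2. The start of the upstream neighbour *Npm1*, which encodes nucleophosmin, had 41.6-fold and 37.5-fold. Summit windows of the 2 stronger intronic regions are given (+ strand, chr11:33143015-33143215 and chr11:33122852-33123052), as they differ in base composition, with 53.7% and 72.1% GC and with 2 and 18 CpG dinucleotides. Capitals mark GATA letters (TTATCT on this strand) and TEAD letters (GGAATG) in the first and the AP-1 letters TGANTCA in the second.
Fgf18 4.29 kb: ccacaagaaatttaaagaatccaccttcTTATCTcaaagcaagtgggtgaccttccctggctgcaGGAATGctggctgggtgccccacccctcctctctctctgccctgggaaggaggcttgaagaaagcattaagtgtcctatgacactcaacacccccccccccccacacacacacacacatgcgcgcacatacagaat
Fgf18 24.4 kb: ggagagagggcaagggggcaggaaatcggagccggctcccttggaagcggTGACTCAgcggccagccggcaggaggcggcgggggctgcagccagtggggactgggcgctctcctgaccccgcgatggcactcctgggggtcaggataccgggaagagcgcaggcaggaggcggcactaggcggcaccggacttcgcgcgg
Similar enrichment was therefore measured at an intronic site of moderate GC content and at one with as many CpG dinucleotides as start windows had in the median over all genes (17).

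Among the receptor genes, *Fgfr1*, the main FGF receptor of mesoderm, was distinguished by a cluster of open regions within its introns. The gene lies on the + strand at chr8:25513654-25575718. The region around its main starts had 22.5-fold and 19.4-fold, and a region by a more upstream start, 3.49 kb away, had 8.96-fold and 10.3-fold, while the other 10 of 18 starts had none. The intronic region 24.9 kb downstream of the main start (chr8:25543207-25544335) had 22.3-fold and 19.4-fold, which did not differ from the start itself beyond the spread between replicates. It exceeded 98.1% of all shared regions away from annotated starts. Another at 28.2 kb (chr8:25546735-25547332) had 19.6-fold and 16.6-fold, lower than the start in both replicates but within the spread. Those at 18.6 kb and 26.3 kb had 12.8-fold and 11.6-fold, and 12.5-fold and 7.79-fold. The remaining intronic region, 2.86 kb from the start, was at 3.53-fold and 4.27-fold.

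The summit windows of the 2 strongest *Fgfr1* intronic regions follow, to set the most accessible intronic sites beside the promoter, together with the 150 bases upstream of the main start (all + strand, GRCm38, chr8:25543519-25543719, chr8:25546908-25547108 and chr8:25518609-25518758). None of the motif letters searched was found in them and they are printed without capitals.
Fgfr1 24.9 kb: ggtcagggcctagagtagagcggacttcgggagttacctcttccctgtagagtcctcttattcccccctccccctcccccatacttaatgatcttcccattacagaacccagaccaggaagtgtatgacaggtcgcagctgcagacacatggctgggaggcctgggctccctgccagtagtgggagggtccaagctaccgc
Fgfr1 28.2 kb: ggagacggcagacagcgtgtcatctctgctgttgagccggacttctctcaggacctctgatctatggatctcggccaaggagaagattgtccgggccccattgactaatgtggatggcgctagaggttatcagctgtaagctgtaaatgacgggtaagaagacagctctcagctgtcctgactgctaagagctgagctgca
Fgfr1 promoter: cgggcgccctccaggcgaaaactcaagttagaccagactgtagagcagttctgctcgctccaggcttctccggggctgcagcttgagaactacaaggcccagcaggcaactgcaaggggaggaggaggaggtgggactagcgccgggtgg
The intronic windows had 58.2% and 53.2% GC with 4 and 7 CpG dinucleotides. The summit window at the main start, which reaches into transcribed sequence and is not printed, had 71.1% GC with 22 CpG dinucleotides. Unlike the printed sequences, that window held motif letters, 1 GC box and 1 match of the ETS letters CCGGAA. The remaining part of the *Fgfr1* window held the starts of *Letm2* (30.7-fold and 30.4-fold) and *Nsd3* (30.2-fold in both replicates), 5 regions in the body of *Nsd3*, the strongest of which, at 101.9 kb, had 17.9-fold and 17.8-fold, 1 weak region in an *Fgfr1* exon, and a region 52.9 kb upstream with 10.9-fold and 11.3-fold. With 16 regions, 7 of them at or in *Letm2* and *Nsd3*, its density of 9.87 per 100 kb was the highest of the 4 receptor genes.

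*Fgfr2*, which encodes the receptor for many epithelial and mesenchymal FGFs, required a separate treatment. Its annotation includes a long transcript that begins at chr7:133123350, at the start of *Ctbp2*, and extends the annotated body (chr7:130162451-133123350, - strand) to 2960.9 kb across many other genes. Without this transcript the body was 103.8 kb (chr7:130162451-130266263), and the window held 9 shared regions (4.42 per 100 kb) instead of 160 (5.23 per 100 kb). Either replicate alone had 14 peaks in this window (6.87 per 100 kb), 5 of them without a counterpart in the other. The region at the *Ctbp2* start had 19.0-fold and 22.1-fold and cannot be assigned to *Fgfr2*. At the remaining starts, the region at the 5′ end of the gene (chr7:130264994-130266635) had 18.5-fold and 14.6-fold, and a smaller one next to it had 4.89-fold and 4.78-fold. No shared region was within 1 kb of the position at which 13 of the 27 annotated transcripts begin (chr7:130261857). A region 69.6 kb downstream, at a pair of internal starts, had 11.1-fold in both replicates. Beyond the 3′ end, the region at 124.7 kb had 11.7-fold and 7.79-fold, and upstream the regions at 7.30 kb and 24.8 kb had 5.70-fold and 6.79-fold, and 7.88-fold and 4.02-fold. In contrast to *Fgfr1*, the single region classed as intronic in *Fgfr2* was weak, with 5.16-fold and 4.02-fold. The stronger region at 69.6 kb also lies inside the gene body and was classed as a start because of the internal starts there.

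*Fgfr3*, a receptor known for restraining bone growth, lies on the + strand at chr5:33721674-33737068. Of its 8 open starts of 14, those at the 5′ end shared a region with 12.0-fold and 13.8-fold, followed by 3 small regions with mean values of 4.48, 3.66 and 4.04. No shared region was located in its introns outside the start windows. Upstream, regions at 29.2 kb and 26.4 kb had 9.78-fold and 8.30-fold, and 6.52-fold and 6.03-fold. The start of *Letm1*, 61.0 kb downstream, had 32.1-fold and 37.7-fold.

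*Fgfr4*, which encodes the receptor that mediates FGF15 signals in liver together with the co-receptor Klotho beta, showed the reverse arrangement. The gene is located on the + strand at chr13:55152640-55168759, and of its 3 starts only the first had a region, at 4.62-fold and 4.78-fold. Its gene body held no other shared region. In contrast, a region 37.7 kb downstream of the start (chr13:55189572-55190907, 1336 bp) had 30.4-fold and 28.4-fold. This region exceeded 99.7% of all shared regions away from annotated starts, and its summits were at the same base in both replicates. It lies between *Fgfr4* and *Nsd1*, overlaps no protein-coding gene and has no annotated start within 1 kb. Its fold enrichment was above that of the start of *Zfp346* (25.3-fold and 24.4-fold) and of *Nsd1* (20.4-fold and 18.6-fold), the genes that flank *Fgfr4*, although these differences were within the spread between replicates. A neighbouring region at 30.1 kb had 9.24-fold and 12.3-fold. Which gene these regions act on, if any, cannot be told from peak lists.

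The sequence of this summit (chr13:55190241-55190441) and the 150 bases upstream of the *Fgfr4* start (chr13:55152490-55152639) are given, both from the + strand of GRCm38. Those 150 bases lie outside the start region (chr13:55152650-55152972), so they are not the weak proximal site itself. Capitals mark a GC box (CCGCCC on this strand).
Fgfr4 37.7 kb: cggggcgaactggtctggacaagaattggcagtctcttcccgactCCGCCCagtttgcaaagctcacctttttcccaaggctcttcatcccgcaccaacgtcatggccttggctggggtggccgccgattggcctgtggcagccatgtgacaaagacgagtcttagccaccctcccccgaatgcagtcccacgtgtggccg
Fgfr4 promoter: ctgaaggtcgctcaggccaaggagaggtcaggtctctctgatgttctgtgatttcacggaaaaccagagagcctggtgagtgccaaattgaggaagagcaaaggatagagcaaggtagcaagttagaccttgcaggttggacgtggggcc
The distal window had 60.7% GC and 12 CpG dinucleotides. The summit window at the weak start, not printed, had 71.1% GC and 16 CpG dinucleotides, the GC content measured at the *Fgfr1* start. That start window held 4 matches of the GC box and 1 of the TEAD letters GGAATG, compared with 1 GC box in the distal window.

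**Figure D2:**
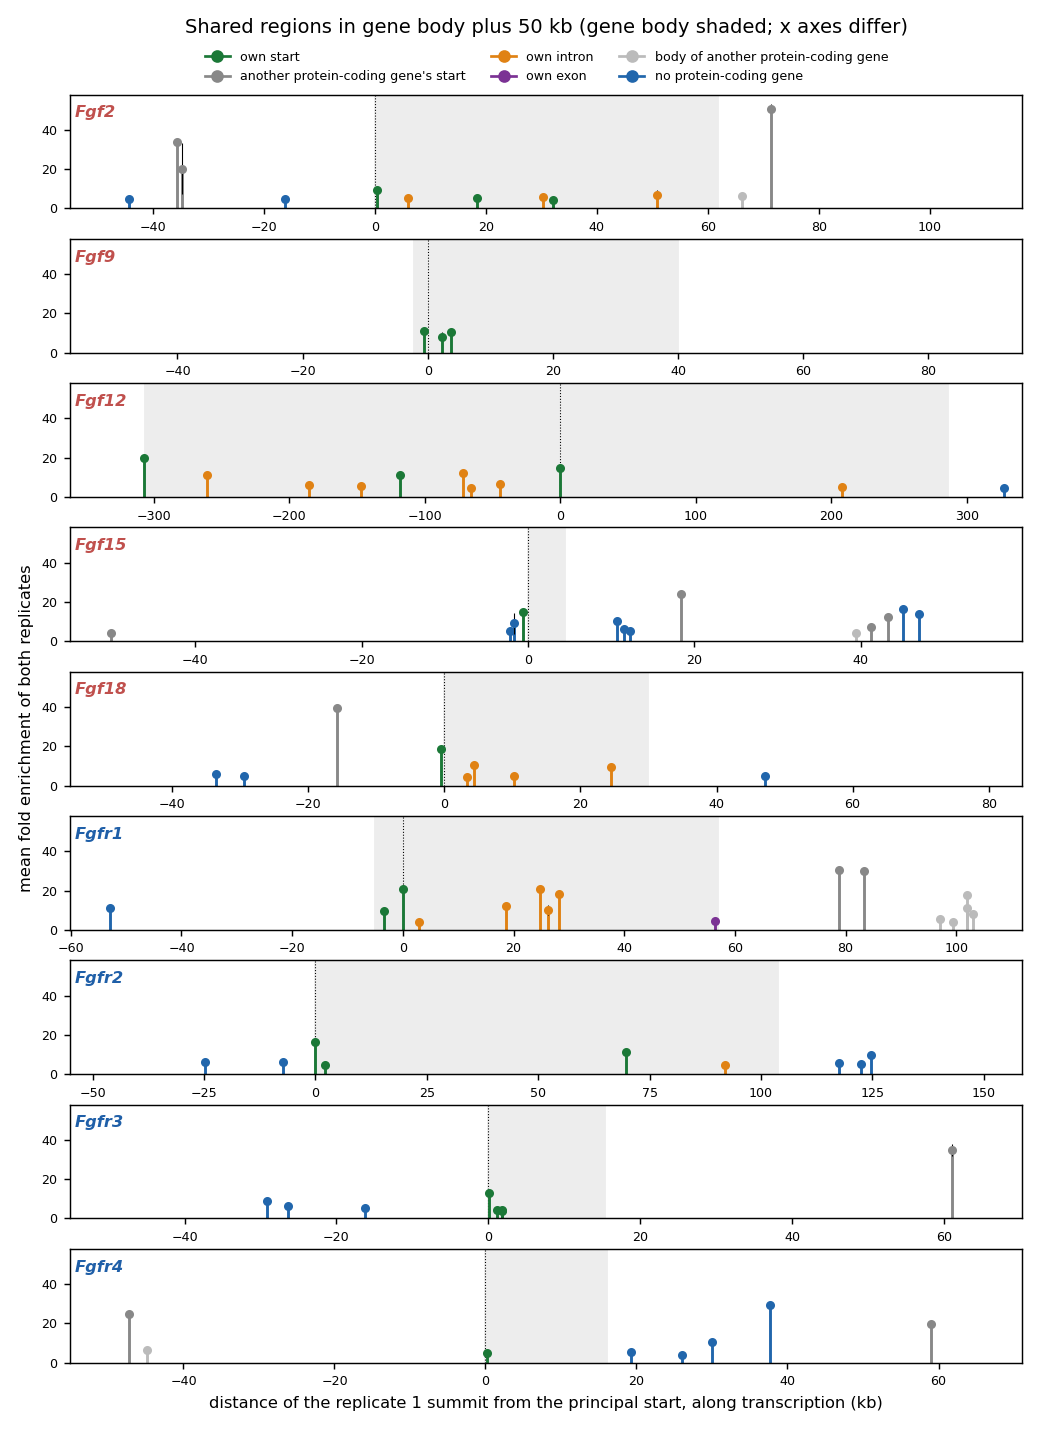
Each panel shows 1 gene with its shared regions as stems at the distance of the replicate 1 summit from the principal start along the direction of transcription (x axis, kb, scale differs between panels), and with mean fold enrichment of both replicates as height (y axis, linear, thin black lines join the replicate values). The gene body is shaded (*Fgfr2* without the long transcript) and colours give the place of each region. The 3 regions of *Fgf9* stand at its starts, *Fgfr1* has an intronic stem at 24.9 kb about as high as its start, and *Fgfr4* has a low start and a distal stem at 37.7 kb.

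Regions of ligand and receptor genes were then compared. The windows of the 5 ligand genes held 48 shared regions in 1231.3 kb, or 3.90 per 100 kb. The receptor windows held 192 regions, or 5.56 per 100 kb, as annotated, and 41 regions in 597.4 kb, or 6.86 per 100 kb, without the long *Fgfr2* transcript. The difference between receptors and ligands was 1.66 regions per 100 kb as annotated and 2.96 without the long *Fgfr2* transcript. The difference as annotated was smaller with peaks of a q-value of at most 1e-10 (0.228), with a reciprocal overlap of 50% (1.01) and with 100 kb on each side (1.09). With the peaks of each replicate by itself and without the long *Fgfr2* transcript, it was 2.51 in replicate 1 (7.87 and 5.36) and 4.15 in replicate 2 (8.37 and 4.22). The pooled ligand value, however, was set by the long and sparse window of *Fgf12*. Without *Fgf12* the other ligand windows had 6.87 regions per 100 kb, the difference from the receptors as annotated turned to -1.32, and it was -0.00994 when the long *Fgfr2* transcript was left out as well. The median over genes was 6.92 regions per 100 kb for ligands and 6.91 for receptors. The range over ligand genes (1.59 to 12.4) contained that over receptor genes (4.42 to 9.87). Across all protein-coding genes the median was 5.41 and the pooled value 5.86. Both leaving out *Fgf12* and leaving out the long *Fgfr2* transcript were decided after the data had been seen. Genes are not replicates, and with 2 samples no p-value was computed for the difference within samples.

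**Figure D3:**
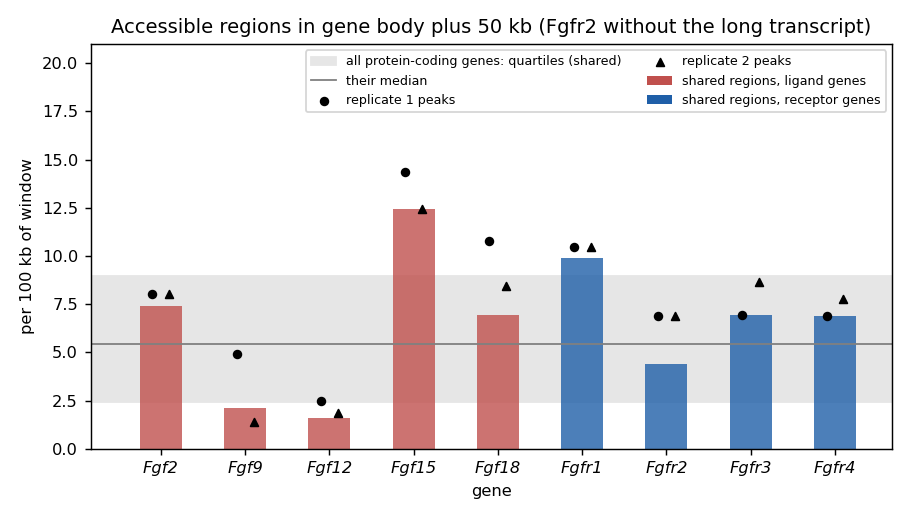
Shared regions per 100 kb of gene body plus 50 kb on each side (bars, y axis from 0) for each gene, with peaks of replicate 1 (circles) and replicate 2 (triangles) alone, and *Fgfr2* without the long transcript. The grey band and line are the quartiles (2.42 and 8.95) and median (5.41) of all protein-coding genes. *Fgf12* (1.59) and *Fgf9* (2.11) lie below the band and *Fgf15* (12.4) and *Fgfr1* (9.87) above it, so that ligand genes span a wider range than receptor genes.

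Start accessibility likewise did not separate the roles. The median of the start values was 15.5-fold and 14.6-fold in replicates 1 and 2 for ligand genes, and 15.2-fold and 14.2-fold for receptor genes without the long *Fgfr2* transcript, a ratio of 0.978 for the mean of both replicates. With that transcript, and thus the *Ctbp2* start, the ratio was 1.11. Regarding position, 14 of 48 ligand regions (29.2%) and 6 of 41 receptor regions (14.6%) lay in the introns of the gene itself, and 7 of the former were in *Fgf12* and 5 of the latter in *Fgfr1*, while *Fgf9*, *Fgf15*, *Fgfr3* and *Fgfr4* had none. Own starts accounted for 11 ligand and 10 receptor regions, starts of other protein-coding genes for 8 and 5, and sequence without a protein-coding gene for 13 in each role.

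The 89 regions had lengths of 56 to 3282 bp and mean fold enrichment of 3.66 to 50.7. The ratio of the replicates was within the spread of 1.84-fold for 84 of them, near the 95% of all shared regions that this limit holds by definition. Of the other 5, the summits were more than 500 bp apart in 4, and the other was the *Fgf2* intronic region at 50.9 kb. Peaks present in a single replicate were weak, with at most 4.89-fold for 26 such peaks in replicate 1 and 4.78-fold for 18 in replicate 2.

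**Figure D4:**
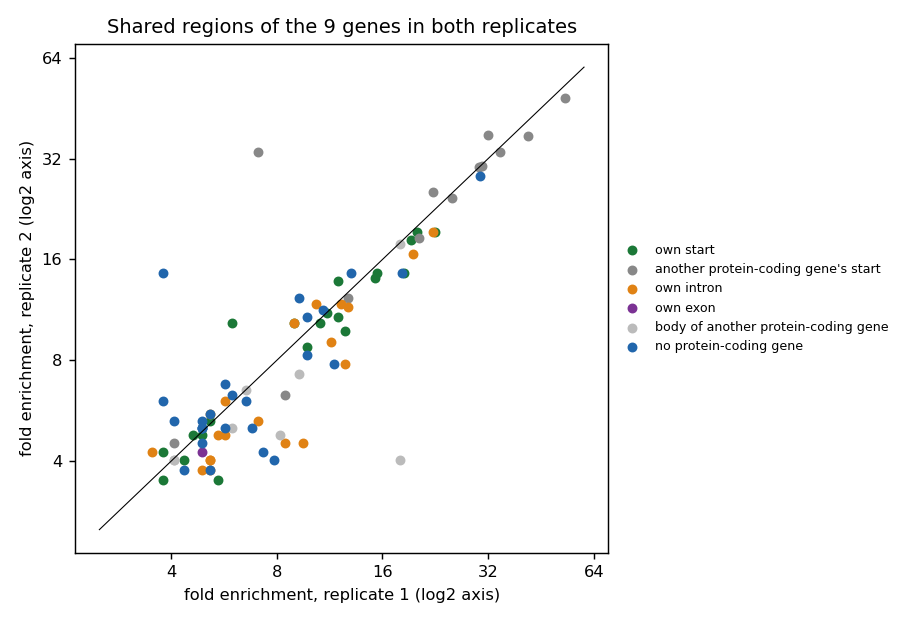
Fold enrichment of the 89 shared regions of the 9 FGF genes in replicate 1 (x axis) and replicate 2 (y axis), both on log2 axes, coloured by place, with the line of equal values. In 84 of 89 regions the replicates differ by less than 1.84-fold after centring. The blue point near 30 in both replicates is the region downstream of *Fgfr4*, and the points far from the line are mostly regions whose summits lie over 500 bp apart.

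The sequence around the summits was examined in 201 bp windows, 87 after regions with the same summit were counted once. Windows at own starts were rich in GC (median of 20 windows 68.7%, with 19 CpG dinucleotides), as were the windows of the most enriched start region of all protein-coding genes (66.2% and 17). The 54 windows away from any annotated start had a median GC content of 52.5%, compared with 49.3% for all 71851 such windows of the series. The letters of 8 motifs were searched on both strands. Of these 54 windows, 5 (9.26%) held the GATA letters AGATAA, which were in 20.4% of all windows away from starts, and 8 (14.8%) held the TEAD letters GGAATG, in 16.5% of all. The ETS letters CCGGAA were in 4 (7.41%, 3.33% of all), the GC box GGGCGG in 4 (7.41%, 6.83%), the AP-1 letters TGANTCA in 3 (5.56%, 9.67%) and the NKX2 letters TCAAGTG in 2 (3.70%, 4.01%). The MEF2 letters TAAAAATA were in 1 window (1.85%, 3.28%), and the TBX letters GGTGTGA, in 3.46% of all, were in none of the 54. The ETS and TEAD letters can share GGAA, and the AP-1 letters read the same on both strands. With 54 windows that share genes and neighbourhoods, these shares are descriptions.

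The other genes of the pathway were taken from a list by role. Of 38 annotated genes, 32 (84.2%) had a shared region at a start, beside 67.6% of all protein-coding genes. All 6 adaptors and transducers had one, with a median of 30.1-fold, and the most enriched were *Gab1* (41.0-fold and 37.2-fold), *Grb2* (33.7-fold and 34.4-fold) and *Frs2* (32.9-fold and 31.2-fold), which encode docking and adaptor proteins below the receptor. The inhibitors, which limit signalling, had one in 9 of 9 cases with a median of 22.2-fold, below the 24.5-fold median of all genes with a start region, and mean values from 14.7 to 38.3. The most enriched were *Spry2*, which had 40.7-fold and 35.9-fold, *Dusp6*, a phosphatase of ERK, with 35.9-fold and 34.9-fold, and *Dusp4* with 29.1-fold and 24.6-fold. The 3 target genes encode ETS transcription factors and were *Etv5* (53.5-fold and 49.0-fold), *Etv1* (35.0-fold and 32.7-fold) and *Etv4* (13.0-fold and 10.6-fold). The start of *Etv5* was above 98.4% of all genes with a start region. Of the receptor-like and co-receptor genes, *Fgfrl1* had 39.7-fold and 38.2-fold and *Kl* had 11.4-fold and 9.55-fold, and *Klb*, the partner of FGFR4 in liver, had none.

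Of the other 17 ligand genes, 12 (70.6%) had an open start, near the share of all genes. The median of the 12 was 13.2-fold. *Fgf20* had 31.2-fold and 29.9-fold, *Fgf10*, a ligand of the second heart field, had 18.7-fold and 17.1-fold, and *Fgf13*, like *Fgf12* an intracellular member, had 16.8-fold and 17.3-fold. No shared start region was found for *Fgf6*, *Fgf7*, *Fgf8*, *Fgf17* and *Fgf21*. *Fgf8*, a ligand of the heart fields and outflow tract, had 1 peak near a start in each replicate, but these did not overlap. The medians of adaptors, inhibitors and targets (30.1-fold, 22.2-fold and 33.9-fold) were above those of the 5 ligand and 4 receptor genes.

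**Figure D5:**
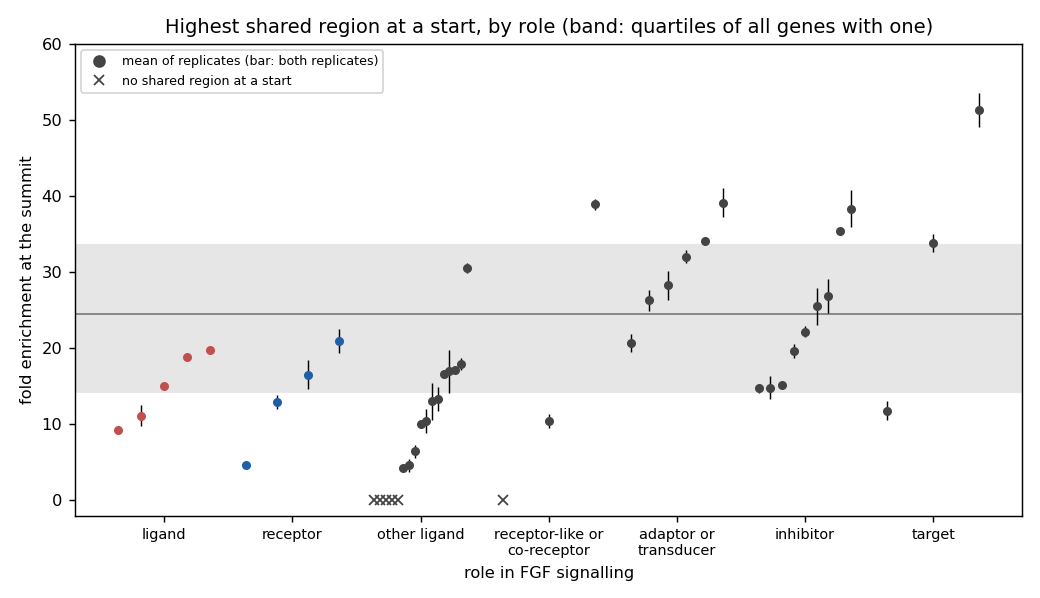
Fold enrichment (y axis, linear) of the highest shared region at a start for the 9 FGF genes (ligands red, receptors blue, *Fgfr2* without the long transcript) and the other pathway genes (dark grey), grouped by role (x axis) and sorted within it. Points are means of both replicates, bars join the replicate values, crosses at 0 are genes without a shared start region, and the grey band and line are the quartiles (14.2 and 33.5) and median (24.5) of all genes with one. All 6 crosses are other ligands and *Klb*, and *Etv5* is the highest point.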

How the data were processed

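ATAC-seq peak lists of 2 replicates of a single group were analysed. Per the paper's methods and the submitters' processing notes, the authors trimmed single-end reads (Trim Galore 0.6.6, Cutadapt), mapped them to GRCm38/mm10 (Bowtie2 2.4.2), discarded duplicated and poorly mapped reads (SAMtools 1.12) and called peaks per replicate with MACS2 without a local background. Sites in repeated sequence are therefore underrepresented. The deposited lists give fold enrichment, a ratio of summit pileup to background with 1 added to both. The deposited −log10 p-values and −log10 q-values, at the summit, were used for limits only, and the authors' score column was not used further.

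Shared regions were the overlaps of at least 1 bp between replicates, merged where they touched (bedtools 2.31.1). Each took the fold enrichment of the overlapping peak with the highest value in each replicate. Transcript starts and bodies came from GENCODE M21, and sequence from the RefSeq GRCm38 assembly, which has the same coordinates. Windows that overlap annotated untranslated sequence were not printed. Pileups were recovered from the fold enrichment, with exact Poisson intervals at 95%. Named regions were those at own starts and the 3 most enriched others of each gene. The *Fgf2* intronic region at 50.9 kb, the *Fgf15* regions at *Fgf4*, at *Ccnd1* and at 10.7 kb to 12.3 kb, the *Fgfr1* regions at 2.86, 18.6, 26.3, 28.2, 52.9 and 101.9 kb, the *Fgfr2* intronic region and the *Fgfr4* region at 30.1 kb fall outside this rule and were named after their values had been seen. The members and gene lists were chosen with earlier results of these data known. *Spry3* was listed but is not annotated in M21. Alternatives covered peak limits, overlap, replicates, start windows and flanks. The overlap code was tested on simulated lists, in which 4200 of 4200 overlapping pairs were found. Python 3.11.15, pandas 2.3.3, SciPy 1.17.1 and Matplotlib 3.10.9 were used.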

Additional observations from a re-analysis of the deposited data

How the results depend on the processing

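No paired analysis was possible because both replicates belong to the same group. The counts of genes with a start region were within 1.5 times of the reported values under every alternative run (pathway genes 29 to 34, ligand genes 5, receptor genes 3 to 4). Densities moved more. With a q-value of at most 1e-10, ligands had 2.03 and receptors 2.26 regions per 100 kb, a difference of 0.228. Receptors had 5.10 with a p-value of at most 0.00001, and 4.34 with a reciprocal overlap of 50%, where the difference was 1.01. With 100 kb on each side the difference was 1.09. Stricter limits and overlap remove regions by construction, and otherwise the cause was not tested. With each replicate left out, ligands had 4.22 to 5.36, receptors 6.14 to 6.51, the difference was 1.15 to 1.91 and the ratio of start medians 1 to 1.14. Of the alternatives chosen after seeing the data, leaving out the long *Fgfr2* transcript gave receptors 6.86, a difference of 2.96 and a ratio reversed to 0.978. Leaving out *Fgf12* gave ligands 6.87 and a difference reversed to -1.32, or -0.00994 with that transcript left out too. Depth was not estimated, and a site without a peak was not detected rather than shown to be closed.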
